A study of Homo sapiens with 2 samples.

Results

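The 10 genes described here make the fatty acid elongases ELOVL1, ELOVL2, ELOVL4, ELOVL5, ELOVL6 and ELOVL7, the desaturases FADS1, FADS2 and FADS3, and the stearoyl-CoA desaturase SCD. They were chosen by name, with the intensities of these same arrays known, and their values are therefore given as a description. A gene could be counted when a probe set was annotated to its symbol alone, which held for 8 of the 10 members and for 19775 genes in all. Of these, 6 members and 13609 genes reached a floor, set at the median of all intensities (68.5, or 6.10 on the log2 scale), on at least 1 array. Only genes that reached it are called measured below. FADS1 and ELOVL1 lay only on probe sets annotated together with a microRNA gene, and those 5 probe sets are given apart, under both names.

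The study compared 2 cultures labelled SW620, an established human colorectal cancer line taken from a lymph node, each hybridized to 1 Affymetrix expression array. The first, called SOX2 knockdown, carried a hairpin RNA from a lentivirus directed at SOX2, which encodes a transcription factor of stem and progenitor cells. The second, called mock knockdown, carried a lentiviral hairpin with no target. Both grew in RPMI-1640 medium, the sample titles read KO where the source names say knockdown, and the labels do not state whether either culture was a clone. There were no replicates, so nothing below was tested, and the precision of each value is limited to what 1 array per group allows. A difference is always the log2 intensity of SOX2 knockdown minus that of mock knockdown.

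The array labelled SOX2 knockdown had less SOX2 signal, with an intensity of 20.9 against 2077 on the mock array at the brightest probe set, and 120 against 333 at the only other one that reached the floor. The epithelial genes EPCAM, KRT8 and KRT18 were bright on both arrays, and 11 of 11 colorectal epithelium markers reached the floor on the SOX2 knockdown array against 8 of 11 on the mock array. The summed intensity of that marker list was 76476 on the SOX2 knockdown array and 48725 on the mock array, and its members did not all differ the same way. KRT20 read 10763 against 23.2 and LGALS4 6010 against 39.1, while VIL1 read 867 against 2063 and GPA33 84.3 against 96.9. The intestinal factor CDX2 was low on both, at 116 and 69.2. A free-text description of the samples speaks of mouse liver, while albumin (ALB) lay under the floor at 20.0 and 21.5. Leukocyte markers reached the floor in 2 of 5 genes on the SOX2 knockdown array and 1 of 5 on the mock array, fibroblast markers in 2 of 5 and 3 of 5, endothelial markers in 2 of 3 on both, hepatocyte markers in 3 of 5 on both, and adipocyte markers in 1 of 4 and 0 of 4. In all, 13609 of 19775 genes reached the floor on at least 1 array, so these counts alone do not show a cell type. The labels give SW620 for both cultures, and whether both are the same line was not tested, which limits what each difference below means. The part that such marker differences have in the results below was not tested.

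Elongases add carbon pairs to fatty acyl-CoA in the endoplasmic reticulum by catalysing the first, condensing step of a cycle, and desaturases add double bonds with electrons passed on by cytochrome b5. ELOVL1, ELOVL6 and ELOVL7 act mainly on saturated and monounsaturated chains, ELOVL2 and ELOVL5 on polyunsaturated chains, and ELOVL4 makes the longest chains. FADS2 and FADS1 work in turn, with elongation by ELOVL5 between them, to make arachidonic acid and related polyunsaturated fatty acids from dietary precursors. SCD turns stearate and palmitate into oleate and palmitoleate. The intestinal epithelium both absorbs such fatty acids and makes them, and several of these genes are known targets of the sterol-regulated factor SREBP-1.

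The promoters of the members with the largest differences in either direction, and of SCD for contrast, are shown because these genes did not share a direction on the arrays. All 10 members matched the RefSeq promoter table of build GRCh38.p14, in which each window runs from 250 bases before to 50 bases after the start of the gene, so that each sequence below has 300 bases, 5′ to 3′ on the gene's strand. Capitals mark matches to the CCAAT box, CCAAT on either strand (ATTGG when reversed), and to the E-box, spelled CACGTG.
ELOVL5, chr6:53348901-53349200 (minus strand): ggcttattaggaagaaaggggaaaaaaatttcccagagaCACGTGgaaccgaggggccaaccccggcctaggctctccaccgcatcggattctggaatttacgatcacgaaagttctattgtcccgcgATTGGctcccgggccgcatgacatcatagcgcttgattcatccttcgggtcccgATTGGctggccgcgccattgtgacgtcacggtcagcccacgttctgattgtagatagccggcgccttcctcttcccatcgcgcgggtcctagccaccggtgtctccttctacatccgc
FADS1, chr11:61816954-61817253 (minus strand): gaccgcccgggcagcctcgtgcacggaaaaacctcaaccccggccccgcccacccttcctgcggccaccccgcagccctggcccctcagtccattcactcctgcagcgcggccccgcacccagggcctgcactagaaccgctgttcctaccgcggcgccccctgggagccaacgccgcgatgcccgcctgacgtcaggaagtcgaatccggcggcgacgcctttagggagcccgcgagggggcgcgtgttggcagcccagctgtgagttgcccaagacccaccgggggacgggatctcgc
ELOVL1, chr1:43367962-43368261 (minus strand): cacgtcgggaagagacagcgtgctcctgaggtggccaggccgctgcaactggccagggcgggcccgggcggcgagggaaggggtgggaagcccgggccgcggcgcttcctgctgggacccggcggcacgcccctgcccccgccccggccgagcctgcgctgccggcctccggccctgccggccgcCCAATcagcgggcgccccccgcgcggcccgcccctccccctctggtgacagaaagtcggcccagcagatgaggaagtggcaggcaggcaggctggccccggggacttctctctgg
ELOVL7, chr5:60844220-60844519 (minus strand): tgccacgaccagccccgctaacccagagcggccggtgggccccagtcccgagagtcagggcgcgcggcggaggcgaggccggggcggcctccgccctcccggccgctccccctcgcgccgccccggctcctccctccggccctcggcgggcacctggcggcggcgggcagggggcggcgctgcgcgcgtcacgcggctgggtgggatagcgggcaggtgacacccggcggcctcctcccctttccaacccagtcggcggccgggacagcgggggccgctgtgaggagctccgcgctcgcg
SCD, chr10:100346983-100347282 (plus strand): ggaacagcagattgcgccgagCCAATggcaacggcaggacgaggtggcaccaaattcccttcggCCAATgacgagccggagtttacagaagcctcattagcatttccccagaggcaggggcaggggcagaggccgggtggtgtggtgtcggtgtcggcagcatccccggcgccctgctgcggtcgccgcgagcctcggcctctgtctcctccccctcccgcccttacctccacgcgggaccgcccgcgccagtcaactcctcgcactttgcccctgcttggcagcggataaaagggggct

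The ELOVL5 window held 2 CCAAT boxes and 1 E-box, the SCD window 2 CCAAT boxes and the ELOVL1 window 1, while those of FADS1 and ELOVL7 held neither motif. Of all 35116 promoters in the table, 34.6% had a CCAAT box and 7.26% an E-box, and among the members 6 of 10 had the first and 2 of 10, ELOVL5 and ELOVL4, the second. ELOVL5 was also the only member with the short SOX core ACAAT on either strand, found 3 times and present in 27.4% of all promoters. The longer core AACAAT, which contains it and stood in 10.1% of all promoters, was found in none of the member windows. A core of the sterol regulatory element, TCACNCCAC, stood in 1.13% of promoters and in none of the members. The GC box, GGGCGG, stood in 45.0% of promoters and was absent from ELOVL5, where 57.3% of bases were G or C, while ELOVL7 held 4 copies at 80.7% and ELOVL1 5 copies at 77.3%. These matches describe letters in 1 window and say nothing of what binds there.

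Among the genes of polyunsaturated fatty acid synthesis, ELOVL5 was lower on the SOX2 knockdown array. Its brightest probe set, 208788_at, read 17.6 on the SOX2 knockdown array and 5101 on the mock array, a difference of -8.18 as deposited. The SOX2 knockdown value lay under the floor, so the gene was lower by at least 74.4-fold at that probe set, whose promoter is the first of those printed above. The other probe sets of ELOVL5 differed by less. At 215082_at the intensity was 76.2 on the SOX2 knockdown array and 159 on the mock array, 2.09-fold lower and above the floor on both. At 1567222_x_at it was 54.4 against 72.9, a difference of -0.42, and at 214153_at, under the floor on both arrays, it was 36.4 against 43.7. The 3 probe sets that reached the floor were thus lower on the SOX2 knockdown array, by very different amounts. The 3 other than 208788_at were dim, none above 159 on the mock array. In a bulk culture, fewer cells with a transcript and less of it per cell cannot be told apart. Of 6440 genes with several probe sets at the floor, 87 differed by at least 16-fold at the brightest, and in 18 of those (20.7%) another probe set differed by under 1.5-fold that way, ELOVL5 being one of them.

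The probe sets annotated to FADS1 together with MIR1908 were also far lower on the SOX2 knockdown array. MIR1908 lies inside FADS1 in the RefSeq gene table, and the array annotation does not separate the names. The probe set 208964_s_at read 76.1 on the SOX2 knockdown array and 1466 on the mock array, 19.3-fold lower. The probe set 208963_x_at read 84.2 against 1094, 13.0-fold lower. The third, 208962_s_at, read 29.0 against 1169 and was lower by at least 17.1-fold, its SOX2 knockdown value being under the floor. All 3 probe sets agreed in direction, with differences of -3.70 to -5.33, and on the mock array all of them lay far above the floor. On the SOX2 knockdown array 208964_s_at and 208963_x_at lay only just above the floor of 68.5, which limits the precision of their folds.

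The neighbouring desaturases showed no such difference. FADS2, which introduces the first new double bond in the same pathway, read 173 on the SOX2 knockdown array and 221 on the mock array at 202218_s_at, a difference of -0.35, and 72.2 against 71.7 at 243953_at. FADS3, known as a desaturase of sphingoid bases, read 413 against 433 at 204257_at and 274 against 276 at 216080_s_at, differences of -0.07 and -0.01. Of all genes 22.9% had a lower difference than FADS2 and 43.3% than FADS3, so both stood inside the bulk of the distribution. Both genes and the FADS1 probe sets come from 1 gene cluster on chromosome 11.

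**Figure D1:**
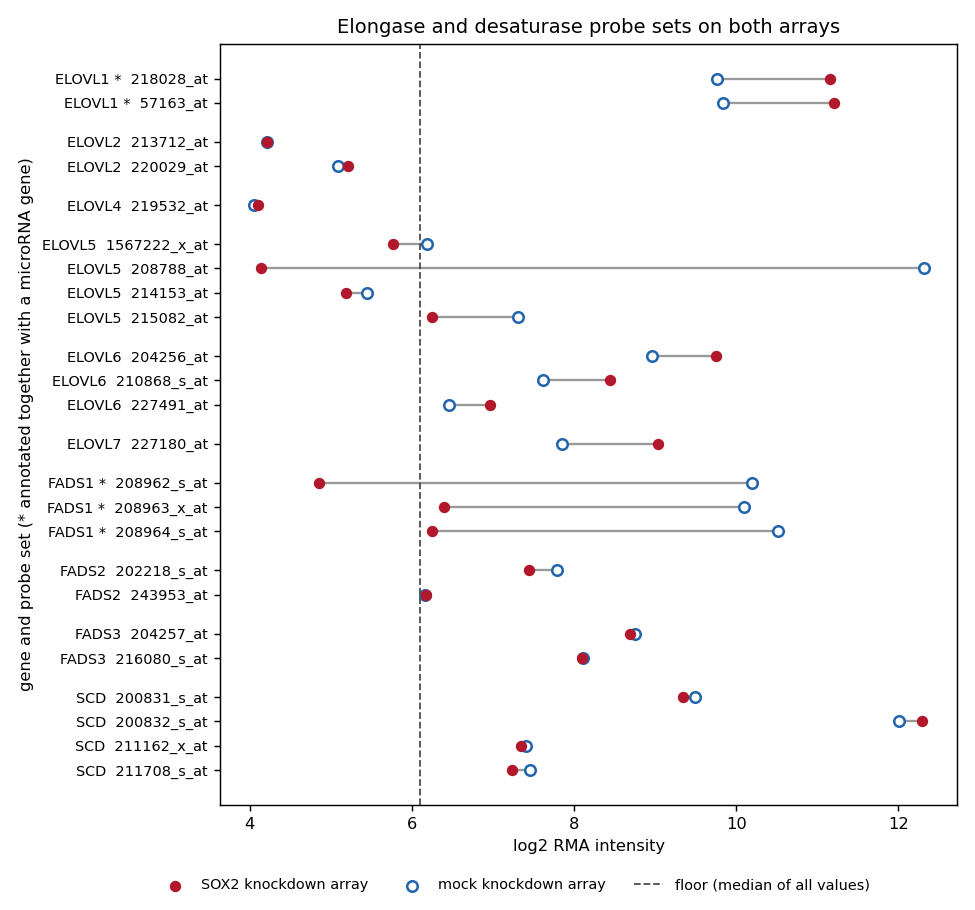
Log2 RMA intensity (x axis) of the 19 probe sets with a single symbol and the 5 joined ones of the 10 genes (y axis), with the SOX2 knockdown array as filled red points, the mock knockdown array as open blue points and the floor as a dashed line. The long bars belong to ELOVL5 at 208788_at and to the 3 probe sets that carry both FADS1 and MIR1908, while FADS2, FADS3 and SCD moved by little.

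The members ELOVL7, ELOVL6 and ELOVL1, elongases of saturated and monounsaturated chains, were higher on the SOX2 knockdown array. They are grouped here with their values known. ELOVL7 read 523 on the SOX2 knockdown array and 230 on the mock array at its single probe set, 227180_at, 2.27-fold higher. ELOVL6, which elongates palmitate to stearate, read 861 against 497 at 204256_at, 348 against 196 at 210868_s_at and 124 against 88.2 at 227491_at. Its 3 probe sets agreed in direction, with differences of 0.79, 0.83 and 0.50, all short of 2-fold. A lower difference than that of ELOVL7 was found in 93.35% of all genes, and than that of ELOVL6 in 89.1%. The 2 probe sets annotated to ELOVL1 together with MIR6734, a microRNA gene inside it, read 2281 against 866 at 218028_at and 2358 against 914 at 57163_at. They were 2.63-fold and 2.58-fold higher, and the transcript accession behind the first is that of ELOVL1 in the RefSeq gene table.

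SCD differed little and its probe sets disagreed in sign. The brightest, 200832_s_at, read 5029 on the SOX2 knockdown array and 4118 on the mock array, a difference of 0.29. The others read 651 against 718 at 200831_s_at, 163 against 170 at 211162_x_at and 151 against 175 at 211708_s_at, with differences of -0.14, -0.06 and -0.22. These 4 values lay within the spread between probe sets of 1 gene, an SD of 0.49 on the log2 scale over all genes with several. That spread comes from this pair of arrays and holds no variation between cultures.

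ELOVL2 and ELOVL4 did not reach the floor on either array. ELOVL2, which elongates polyunsaturated chains further than ELOVL5, read 37.0 on the SOX2 knockdown array and 33.9 on the mock array at 220029_at, and 18.6 on both at 213712_at. ELOVL4, best known from retina and skin, read 17.2 against 16.6 at 219532_at. No direction is given for either, since values under the floor carry no order here.

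Taking the brightest probe set of each gene, 1 of the 6 members that reached the floor, ELOVL7, was higher by 2-fold or more on the SOX2 knockdown array, where 8.44% of all 13609 genes were. Likewise 1 of the 6, ELOVL5, was at least 2-fold lower, where 7.29% of all genes were. The median difference of the 6 was 0.11, with 3 above 0 and 3 below, against -0.0063 over all genes. With the probe sets that carry a microRNA name added, an alternative chosen after seeing the data, 2 of 8 were at least 2-fold higher and 2 of 8 lower, and the median was again 0.11. Because the members were chosen with these values known, the counts are not set against the background as evidence. Among the measured elongases the 3 values as deposited ran from -8.18 to 1.18 with a median of 0.79. The desaturases FADS2, FADS3 and SCD stayed between -0.35 and 0.29. FADS1, a desaturase too, was left out of that range because of its joint annotation. Its probe sets differed by -3.70 to -5.33, so no contrast between elongases and desaturases is drawn. The count of lower members rests on 1 probe set of ELOVL5: with the median over its 4 probe sets the difference was -0.74, and 0 of 6 members passed 2-fold in that direction, with no test at any setting.

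**Figure D2:**
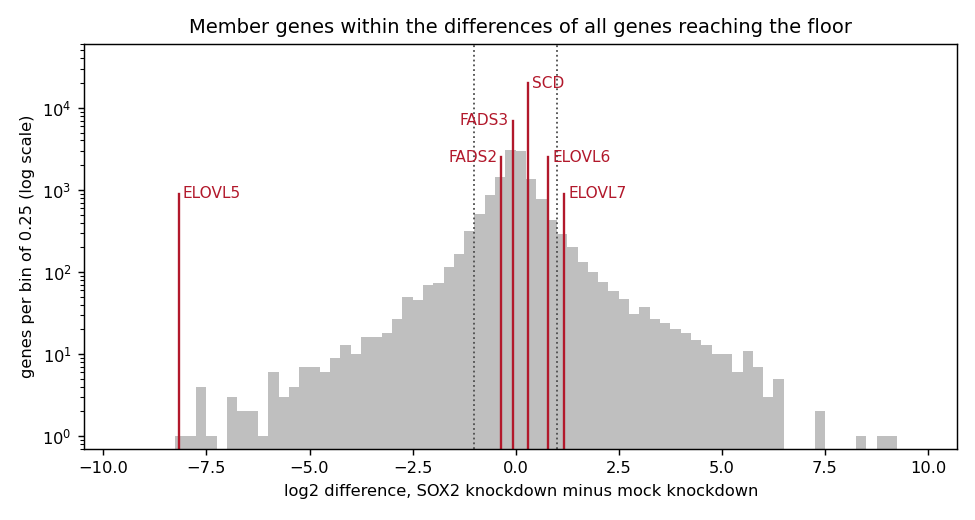
Number of genes (y axis, log scale) by log2 difference, SOX2 knockdown minus mock knockdown (x axis, bins of 0.25), for the 13609 genes that reached the floor, with the 6 measured members as red lines whose height has no meaning and dotted lines at 2-fold. ELOVL5 stands at -8.18 as deposited, with its SOX2 knockdown value under the floor, and the other 5 lie between -0.35 and 1.18.

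None of the measured genes beside a member on its chromosome differed by as much as ELOVL5 or the FADS1 probe sets. Order along the chromosome was taken from the RefSeq table, with the 3 nearest measured genes on either side. Beside ELOVL5, GCLC, an enzyme of glutathione synthesis, differed by 0.15, the kinase gene CILK1 by -0.78, and GSTA4, a glutathione transferase, by 0.68. LRRC1, farther along, differed by 1.88, TMEM14A by -0.35 and RPS16P5 by -0.37. Beside the FADS cluster, FEN1, a nuclease of DNA replication, differed by 0.12, TMEM258 by -0.12, MYRF-AS1 by -0.28, RAB3IL1 by 0.03 and BEST1 by -0.22. The 3 measured genes on either side of FADS2, FADS3 and SCD all lay within 2-fold. All 6 neighbours of ELOVL6 were above 0, from 0.31 at GAR1 to 1.17 at CASP6, beside 0.79 at ELOVL6. ELOVL7 had PLK2 at 2.29, PDE4D at -1.59 and DEPDC1B at -1.13 on one side, and ERCC8 at -0.66, NDUFAF2 at -0.24 and SMIM15 at 0.04 on the other. ELOVL1 had TMEM125 at 2.17, C1orf210 at 1.08 and CDC20 at -0.42 on one side, and MED8 at 0.12, HYI at 0.82 and PTPRF at 1.55 on the other. The neighbours of ELOVL2 ran from -0.55 at PAK1IP1 to 1.42 at NEDD9, and those of ELOVL4 from -1.29 at TTK to 0.65 at SH3BGRL2. Over all members the 48 different neighbours had a median difference of 0.12, against -0.0063 over all genes. By 2-fold or more 7 were higher and 3 lower, beside 8.44% and 7.29% of all genes.

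**Figure D3:**
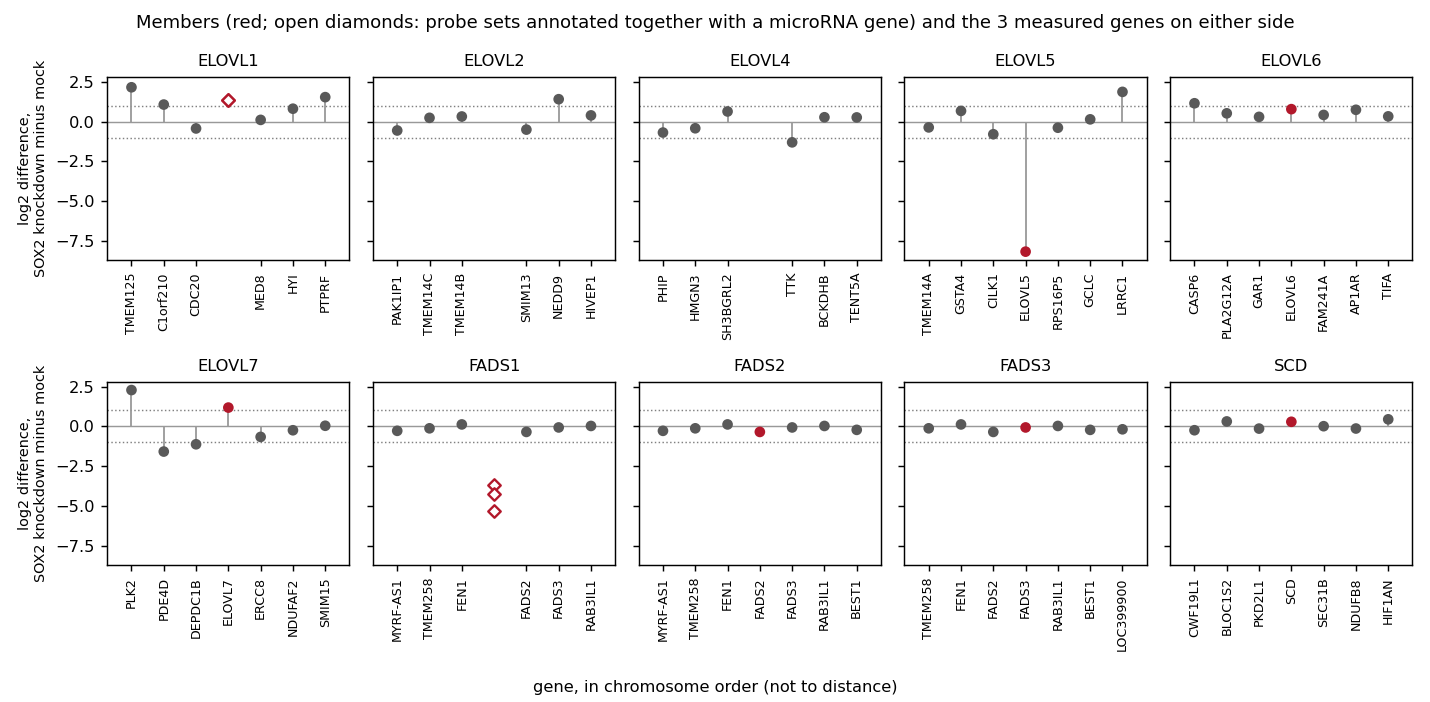
Log2 difference, SOX2 knockdown minus mock knockdown (y axis), of each member (red), of the probe sets that carry FADS1 or ELOVL1 beside a microRNA gene (open diamonds) and of the 3 measured genes on either side in chromosome order (grey, x axis not to distance), with dotted lines at 2-fold. ELOVL5 and the FADS1 diamonds stand far below neighbours, which range from -1.59 to 2.29.

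At their brightest probe sets, the partners of the elongases in their cycle differed by under 2-fold. The ketoacyl-CoA reductase HSD17B12 read 4405 on the SOX2 knockdown array and 4920 on the mock array, a difference of -0.16. The dehydratases HACD3 and HACD2 differed by 0.20 and 0.87, though a further probe set of HACD2 differed by 1.57. The final reductase TECR differed by -0.40, and by 0.16 at its other probe set. Of 7 genes on that list 4 reached the floor, with a median difference of 0.02, and the further elongase ELOVL3 stayed under it at 19.5 on the SOX2 knockdown array and 20.5 on the mock array.

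The cytochrome b5 genes CYB5A and CYB5B differed in opposite directions. CYB5A, the cytochrome b5 of the endoplasmic reticulum, read 2742 on the SOX2 knockdown array and 772 on the mock array, 3.55-fold higher, and its other 3 probe sets differed by 0.78 to 2.05. CYB5B, the form on the outer mitochondrial membrane, read 961 against 3377, 3.51-fold lower, with its other 3 probe sets between -2.37 and -1.69. The reductase CYB5R3 differed by 0.16. SCD5, the second human stearoyl-CoA desaturase, read 19.1 against 424 and was at least 6.19-fold lower at its brightest probe set, while the other 3 differed by only -0.35 to -0.02. The ceramide desaturases DEGS2 and DEGS1 differed by 1.20 and -0.23. Of the 9 measured genes in this list 2 were higher and 2 lower by 2-fold or more, around a median of 0.16. By that much 8.44% of all genes were higher and 7.29% lower. The lower count fell to 1 when each gene took the median over its probe sets, or its least different one. The higher count fell to 1 without _x_at and _s_at probe sets, which left 8 genes.

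In palmitate synthesis and fatty acid activation some genes were higher and others lower. ACACA, the acetyl-CoA carboxylase that supplies malonyl-CoA to both synthesis and elongation, read 2004 on the SOX2 knockdown array and 823 on the mock array, 2.44-fold higher, and 0.70 on the log2 scale at its other probe set. The citrate carrier SLC25A1 was 2.06-fold higher, while the fatty acid synthase FASN differed by -0.61, and ACSS2 and MLYCD by -0.18 and -0.04. Of 8 measured synthesis genes 2 were higher and 0 lower by 2-fold or more, around a median of 0.11. Of all genes 8.44% were higher and 7.29% lower by that much. The count of 2 was 1 with the mean or median of probe sets, with the probe set of smallest difference and with a pseudocount of 32. It was also 1 without _x_at and _s_at probe sets, which left 4 genes. ACSL5, an acyl-CoA synthetase of enterocytes, read 3549 against 295, 12.0-fold higher, and its other probe set differed by 4.27. SLC27A5, a synthetase of bile acid and very long chain metabolism, differed by -1.05, with -0.09 at its other probe set, and SLC27A4 and SLC27A1 by 0.08 and -0.35. Among the 8 measured synthetases 1 was higher and 1 lower by 2-fold or more, around a median of 0.22.

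The transcriptional regulators known to act on elongase and desaturase genes did not share one size of difference. SREBF1, which encodes SREBP-1, read 341 on the SOX2 knockdown array and 287 on the mock array, a difference of 0.25, with -0.07 at its other probe set, and SREBF2 differed by 0.05. All 5 measured nuclear receptor genes, a subgroup of this list named with its values known, were above 0, as were 6649 of all 13609 genes. Of the 5, 4 passed 2-fold. PPARG read 1623 against 411, 3.95-fold, and RXRA 1352 against 386, 3.50-fold. The LXR gene NR1H3 read 552 against 191, 2.89-fold, and PPARA 262 against 97.8, 2.68-fold. The remaining one, PPARD, differed by 0.98. The other probe set of RXRA differed by only 0.16, and the other 8 of PPARA ran from -0.05 to 2.86. MBTPS2, a protease that releases SREBP, was 3.05-fold lower, with -0.65 and -0.17 at its other probe sets, and MLXIPL differed by -0.23. Of the 14 measured genes in this list 4 were higher and 1 lower by 2-fold or more, around a median of 0.36. Of all genes 8.44% were higher and 7.29% lower by that much. With the median of all probe sets, and with the probe set of smallest difference, 2 of the 14 were higher and 0 lower.

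Among enzymes that use or release the products, some single genes differed widely. PLA2G4A, the phospholipase that frees arachidonic acid, read 584 on the SOX2 knockdown array and 12.1 on the mock array, at least 8.52-fold higher. LPCAT2, an acyltransferase of platelet-activating factor synthesis, was 16.9-fold higher, though its other 3 probe sets differed by 0.38 to 3.60, and MBOAT7, which places arachidonic acid in phosphatidylinositol, was 2.90-fold higher. AGPAT5 was 2.21-fold lower, and LPCAT3 and LPCAT1 differed by -0.01 and 0.03. The 11 measured remodelling genes had a median of 0.03. By 2-fold or more 3 were higher and 1 lower, beside 8.44% and 7.29% of all genes. PLIN2, a coat protein of lipid droplets, read 288 against 5544, 19.3-fold lower, but -0.06 at its other probe set. The lipase MGLL was 12.6-fold higher and the acyltransferase DGAT1 2.84-fold higher, the phosphatase genes LPIN1 and LPIN3 differed by 0.07 and 0.06, and the 13 genes of triglyceride synthesis and storage had a median of 0.07. CERS6, a ceramide synthase, was 2.46-fold higher, while CERS5 and CERS4 differed by -0.49 and -0.22, and the 4 measured members had a median of 0.28. A floor at the 75th percentile, which left 3 genes, moved that median to 0.78, and it was -0.49 without _x_at and _s_at probe sets, which left 1.

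In the list of mitochondrial oxidation the largest difference was that of ECI2. The isomerase ECI2, which handles double bonds of unsaturated acyl-CoA, read 23.4 on the SOX2 knockdown array and 1519 on the mock array, at least 22.2-fold lower at its single probe set. ACADM was 2.02-fold lower, while SLC25A20 differed by 0.00 and ACADS by 0.01. Of 13 mitochondrial genes 8 were below 0, as were 6877 of all 13609 genes, and the median was -0.31. By 2-fold or more 2 were lower, and this count was 1 with a pseudocount of 32 and with intensity-dependent centring of the arrays. It was also 1 without _x_at and _s_at probe sets, which left 10 genes. Among 7 measured peroxisomal genes EHHADH read 27.3 against 71.4, at least 1.04-fold lower against the floor, so that the count of lower genes was 1 as deposited and 0 with values raised to the floor. ABCD3 and ACAA1 differed by 0.14 and 0.17, and the median was 0.14. The fatty acid carrier FABP5 was 2.12-fold lower, CD36 and FABP6 differed by 0.10 and 0.12, and that list of 6 had a median of 0.11. Over all 11 lists 97 of 121 genes reached the floor, 15 (15.5%) were higher and 10 (10.3%) lower by 2-fold or more, as deposited and with EHHADH among the lower, beside 8.44% and 7.29% of all genes, with a median of 0.0995.

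**Figure D4:**
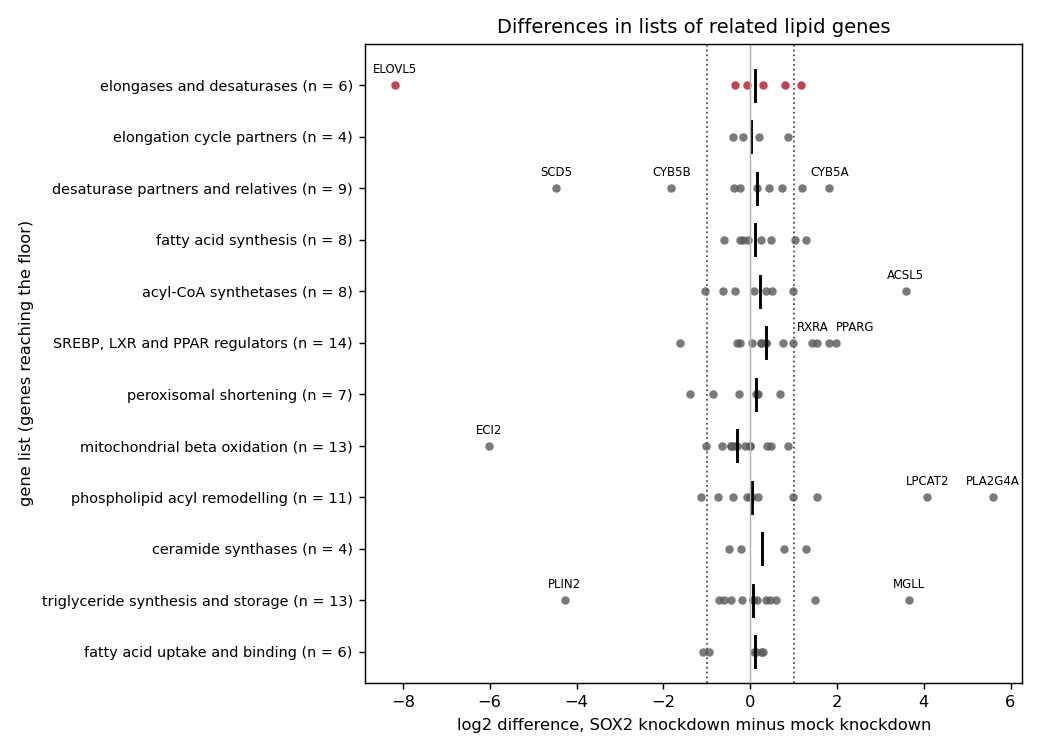
Log2 difference, SOX2 knockdown minus mock knockdown (x axis), of each measured gene (points) in the elongase and desaturase group (red, top) and in 11 lists of related lipid genes (y axis), with a black bar at each list's median and dotted lines at 2-fold. List medians lay between -0.31 and 0.36, while single genes as deposited ran from ECI2 at -6.02 to PLA2G4A at 5.59.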

How the data were processed

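Total RNA of 2 cultures was labelled with biotin and hybridized to 1 array each, per the labels' protocols. Each array has 1 deposited intensity per probe set, from RMA according to the submitters' processing notes, which give no settings. The values are on a linear scale, as their range shows, and were turned into log2 without a pseudocount or any added normalization. RMA usually equalizes distributions between arrays, which hides any change in RNA content per cell, and gives no detection call. A platform annotation gave 1 symbol to 41091 of 54613 probe sets other than controls, several to 1801 and none to 11721; only the first kind was counted for a gene. Each gene took the value of its brightest probe set, by mean log2, and entered when either array reached the floor. Genes past 2-fold were counted and none was tested, each group having a single array. A fold with its dimmer value under the floor was computed against the floor and is a bound, while differences, counts and medians use values as deposited. Counting was tested on simulated data with planted changes larger than the limit, in genes well above the floor. That checks the counting step only and says nothing of the precision of these arrays. The members, the 11 lists, the motifs and the rule for named genes were chosen with earlier results of these data known. That rule took every member, list genes past 2-fold, up to 2 per list nearest to 0, 3 neighbours on either side, and the 3 nearest patterns; other named list genes (FASN, SREBF1, PPARD, TECR, HACD2, ELOVL3) were added after their values were seen. Symbols, gene order and promoters came from RefSeq tables of GRCh38.p14. Python 3.11.15, numpy 2.4.6, pandas 2.3.3 and matplotlib 3.10.9 were used.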

Additional observations from a re-analysis of the deposited data

How the results depend on the processing

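The count of members at least 2-fold higher was 1 and that of members lower was 1 under each of 3 other normalizations between the arrays, 3 other choices of floor, values raised to the floor, the mean of probe sets, a pseudocount of 32 and without probe sets of type _x_at and _s_at. The lower count was 0 with the median of all probe sets and 0 with the probe set of smallest difference, where ELOVL5 differed by -0.74 and -0.42. The higher count was 2 at a limit of 1.5-fold and 0 at 3-fold. Both counts were 2 with the microRNA-joined probe sets, which were added only once the data had been seen. The median of the members ran from -0.07 to 0.13. ELOVL5 was -6.22 with values raised to the floor, -6.69 with the pseudocount and -3.22 as the mean of its probe sets. Over the related lists and all these alternatives, 277 counts stayed within 1.5 times and 53 did not, and of 143 list medians 11 took the opposite sign, in 7 lists. No paired analysis was possible because each group held 1 array, and for the same reason no replicate could be left out. Signal near the floor limits ELOVL2, ELOVL4 and the dim probe sets of ELOVL5. Low signal also limits the SOX2 knockdown values of ELOVL5 at 208788_at, 17.6, and of the FADS1 probe sets, 29.0, 76.1 and 84.2.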

Other observations

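By the Euclidean distance between their 2 log2 values, the genes nearest to ELOVL5 were BEX3, CLDN11 and GAL. All 3, like ELOVL5, lay under the floor on the SOX2 knockdown array, so that their order is not meaningful, and they read 5256, 2962 and 6614 on the mock array. The genes nearest to ELOVL7 were PHLPP2 at 0.03, H2BC5 at 0.05 and ZNF552 at 0.07, with differences of 1.22, 1.13 and 1.09. With 2 arrays such nearness only describes these values.

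The annotation joined a gene with microRNA genes alone at 178 probe sets, 5 of which belong to FADS1 and ELOVL1.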
